A study of Mus musculus with 6 samples.

Results

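A set of 36 genes of the cell division cycle was followed across 6 RNA sequencing libraries of splenic CD4 T cells. They are Mki67, Top2a, Ccna2, Ccnb1, Ccnb2, Cdk1, Ccne1, Ccne2, Mcm2 to Mcm7, Pcna, Tyms, Rrm1, Rrm2, Tk1, Birc5, Aurka, Aurkb, Plk1, Bub1, Bub1b, Cdc20, Cenpe, Cenpf, Kif11, Kif20a, Ube2c, Stmn1, Hmgb2, Nusap1, Tpx2 and Spc25. The genes were chosen by symbol, and their Ensembl identifiers were matched to GENCODE M21 on GRCm38. All 36 were present among the 28914 genes of the deposited table, and all 36 passed the filter of at least 1 FPKM in at least 2 libraries, which left 10798 genes for testing. The cells were total CD4 T cells sorted from spleens of NOD mice, a strain prone to autoimmune diabetes, at 12 weeks of age, and received no T cell receptor stimulation after sorting. Control cells carried the WT genotype, another group (CKO) was labelled as a Blimp1 knockout, and the last (BTg) was labelled with Blimp-1 overexpression, with 2 libraries in each group. Prdm1 encodes Blimp-1, a repressor of transcription, so the comparisons ask whether transcripts of dividing cells differ when Blimp-1 is absent by label or raised. The sources used here do not give the promoter of the transgene, how the knockout was made, or whether a group's libraries stem from different mice. Adjusted p-values therefore measure the spread between these libraries, which may be technical.

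Most CD4 T cells in an unstimulated spleen rest outside the cell cycle, and the transcripts of DNA replication and mitosis come from the minority that divides. Entry into S phase is driven by E2F transcription factors, which induce cyclin E, the MCM helicase that unwinds DNA, the sliding clamp and the enzymes that make deoxynucleotides. Mitotic genes, which the DREAM complex represses in resting cells, are switched on later by MuvB with B-MYB and FOXM1, and they encode the cyclin B and CDK1 kinase, spindle and kinetochore proteins, and the ubiquitin machinery that ends mitosis. In bulk RNA, fewer dividing cells and less of these transcripts per cell cannot be told apart.

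The libraries held from 14958458 to 17799091 reads recovered on genes. The 36 genes took 0.172 and 0.46% of the reads in WT replicates 1 and 2, 0.618 and 0.404% in CKO, and 0.179 and 0.205% in BTg. A member was covered by at least 74 reads in a library (Spc25 in BTg replicate 1) and at most 13644 (Hmgb2 in CKO replicate 1). Prdm1, the gene altered by label, stood at 1.72 and 2.36 FPKM per exon length in WT, 3.19 and 2.52 in CKO, and 73.7 and 113 in BTg. Prdm1 was thus higher in BTg than in WT (limma log2 difference 4.04, SE 0.26, adjusted p = 0.0221, n = 2 libraries a group). With the replicate number as a block, with quantile normalization or with any 1 library left out, 0 genes passed in that comparison, so that this call was lost. It was not lower in the libraries labelled CKO, so Prdm1 did not check that label, and the deleted exons are not known here. Markers of CD4 T cells (10 of 10 measured) were abundant in each library, with summed levels of 2261 and 1597 in WT, 1175 and 1718 in CKO, and 2351 and 2046 in BTg. CKO replicate 1 had the lowest sum, and its neutrophil and plasma cell markers were the highest of the 6, with values given further on. For 16 of the 36 genes another annotated gene overlaps, and Pcna and Ccnb1 have pseudogene copies, so that reads could be shared in the counting.

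Levels of different genes are compared here as FPKM per exon length, which was computed from the recovered reads, because the deposited FPKM divide by the genomic span of a gene. Values of a group are given for replicate 1 before replicate 2. On that scale, the 36 genes ranged from Cenpf, at 0.557 in WT replicate 1, to Hmgb2, at 255 in CKO replicate 1. The highest of the 6 libraries was CKO replicate 1 for 33 genes and WT replicate 2 for the other 3 (Ccne1, Mcm2 and Mcm4). The lowest was WT replicate 1 for 25 genes, BTg replicate 1 for 9 and BTg replicate 2 for 2. For each of the 36 genes, both CKO libraries lay above both BTg libraries and above WT replicate 1, and WT replicate 2 lay above both BTg libraries. The 2 control libraries thus differed from each other throughout the set. The ratio of the highest to the lowest library ran from 2.25 for Pcna to 10.1 for Rrm2, with a median of 5.53.

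**Figure D1:**
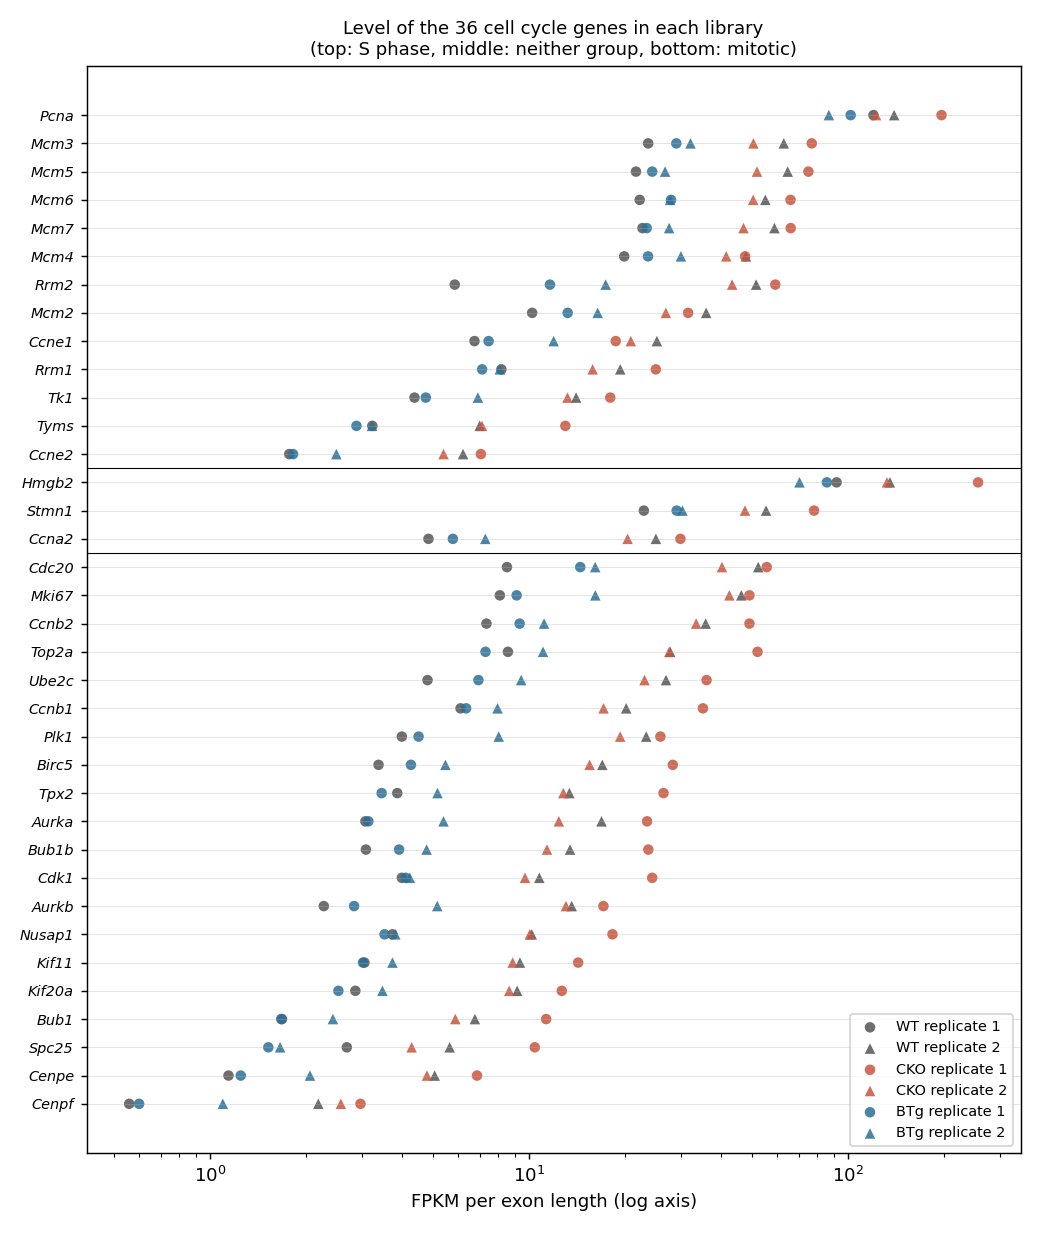
Level of each of the 36 genes (FPKM per exon length, log axis) in the 6 libraries, with S phase genes at the top, the 3 genes of neither phase group in the middle and mitotic genes at the bottom; circles are replicate 1 and triangles replicate 2. Both CKO libraries and WT replicate 2 lie to the right of both BTg libraries in each row, and WT replicate 1 lies at the lowest position for 25 genes.

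The promoters of abundant S phase and mitotic genes are shown for the elements known from cell cycle promoters, which each holds in a different number. Sequences run from 250 bases before to 50 bases after the transcription start (RefSeq, GRCm38.p6), for the 2 S phase and the 2 mitotic members with the highest mean level that have an entry in that table. Capitals mark the E2F element (TTCCCGC or TTGGCGC), the cell cycle genes homology region or CHR (TTTGAA or TTCGAA), and the CCAAT box, on either strand. The CCAAT box reads ATTGG on the opposite strand, and TTGGCGC can share its first 4 letters with it.
Pcna, chr2:132253131-132253430, minus strand: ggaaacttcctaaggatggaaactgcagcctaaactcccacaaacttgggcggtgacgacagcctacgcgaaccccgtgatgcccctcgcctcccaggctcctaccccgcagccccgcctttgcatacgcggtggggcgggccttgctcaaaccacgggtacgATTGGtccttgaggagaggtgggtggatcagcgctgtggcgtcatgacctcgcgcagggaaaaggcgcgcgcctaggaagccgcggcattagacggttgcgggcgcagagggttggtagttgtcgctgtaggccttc
Mcm3, chr1:20820263-20820562, minus strand: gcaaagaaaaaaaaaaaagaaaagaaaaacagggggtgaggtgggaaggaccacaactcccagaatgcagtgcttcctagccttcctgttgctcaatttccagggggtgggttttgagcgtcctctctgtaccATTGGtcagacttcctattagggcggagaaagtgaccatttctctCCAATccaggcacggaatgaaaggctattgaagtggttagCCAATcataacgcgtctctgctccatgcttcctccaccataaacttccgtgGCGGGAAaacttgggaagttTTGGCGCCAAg
Cdc20, chr4:118437294-118437593, minus strand: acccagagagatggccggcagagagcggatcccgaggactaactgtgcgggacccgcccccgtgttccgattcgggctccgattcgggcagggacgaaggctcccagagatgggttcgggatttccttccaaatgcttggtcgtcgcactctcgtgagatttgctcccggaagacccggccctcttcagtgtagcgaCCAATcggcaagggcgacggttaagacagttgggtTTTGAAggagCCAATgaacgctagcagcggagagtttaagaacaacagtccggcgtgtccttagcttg
Mki67, chr7:135716330-135716629, minus strand: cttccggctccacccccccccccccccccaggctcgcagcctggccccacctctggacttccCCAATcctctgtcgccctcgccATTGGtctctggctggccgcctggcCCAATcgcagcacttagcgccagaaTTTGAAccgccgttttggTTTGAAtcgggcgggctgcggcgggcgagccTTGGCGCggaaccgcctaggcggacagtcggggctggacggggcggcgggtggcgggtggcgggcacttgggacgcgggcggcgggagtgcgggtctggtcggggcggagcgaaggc
In the Mcm3 window, 3 E2F matches begin at bases 20, 40 and 43 after the start, the last pair overlapping, and 3 CCAAT boxes begin at -117, -72 and -32. Mki67 holds 2 CHR matches at -116 and -98, an E2F match at -67 and 3 CCAAT boxes at -188, -166 and -141. Cdc20 has its CHR at -18 between CCAAT boxes at -53 and -8. Pcna has 1 CCAAT box at -87 and neither of the other motifs as spelled here.

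Of the 36 genes, 29 had a promoter in the table, 11 of them S phase, 17 mitotic and 1, Hmgb2, of neither group. An E2F match was found in 5 of 11 S phase promoters (45.5%), in 3 of 17 mitotic ones (17.6%) and in 6.96% of the 27025 promoters of that length. A CHR match was found in 2 of 11 S phase promoters (18.2%), in 13 of 17 mitotic ones (76.5%) and in 19.5% of all. The CCAAT box was present in 8 of 11 S phase promoters (72.7%), in 15 of 17 mitotic ones (88.2%) and in 38% of all. CHR and CCAAT occurred together in the same 13 mitotic promoters, against 7.73% of all promoters. The members' promoters had a median GC content of 57.7%, against 52.7% for all. These matches describe letters in one window per gene and were not tested.

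The helicase and clamp genes act at the replication fork. Pcna, the sliding clamp, stood at 120.0 and 139 FPKM per exon length in WT, 196 and 122 in CKO, and 102 and 87.0 in BTg. It had the flattest profile of the 36, and its lower CKO library exceeded the higher BTg library by a factor of 1.2. Mcm3, one of 6 subunits of the replicative helicase, stood at 23.6 and 62.8 in WT, 76.9 and 50.4 in CKO, and 28.9 and 32.0 in BTg. Mcm2, another subunit, stood at 10.2 and 35.9 in WT, 31.5 and 26.8 in CKO, and 13.2 and 16.4 in BTg. For all 6 helicase genes, WT replicate 1 lay below both BTg libraries. Mcm4 had the smallest ratio of the CKO mean to the BTg mean among the 36, 1.66, with levels of 47.5 and 41.5 against 23.6 and 29.9.

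The next 4 genes supply deoxynucleotides. Rrm2, the regulatory subunit of ribonucleotide reductase, whose protein is made in S phase, stood at 5.84 and 51.5 in WT, 59.1 and 43.3 in CKO, and 11.6 and 17.4 in BTg. WT replicate 2 therefore held 8.81 times the level of WT replicate 1, the widest gap of any member. Rrm1, the large subunit, stood at 8.18 and 19.3 in WT, 24.9 and 15.8 in CKO, and 7.12 and 8.09 in BTg. Tyms, thymidylate synthase, stood at 3.22 and 7.0 in WT, 13 and 7.11 in CKO, and 2.87 and 3.22 in BTg. Both genes were lower in each BTg library than in each WT library, by narrow margins from WT replicate 1. Tk1, thymidine kinase, ranged from 4.37 in WT replicate 1 to 18 in CKO replicate 1.

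Among the cyclins, Ccne1, a cyclin of the G1 to S transition, stood at 6.74 and 25.1 in WT, 18.7 and 20.8 in CKO, and 7.46 and 11.9 in BTg. It was the one member that was not lower in CKO replicate 2 than in CKO replicate 1. Ccnb1, a mitotic cyclin, stood at 6.09 and 20.1 in WT, 35.1 and 17.1 in CKO, and 6.34 and 7.96 in BTg. Cdk1, the kinase that mitotic cyclins activate, stood at 3.99 and 10.8 in WT, 24.3 and 9.70 in CKO, and 4.11 and 4.23 in BTg. The 2 BTg libraries were nearly equal for Cdk1, and its CKO libraries were the farthest apart of the 36 genes, by a factor of 2.5. Ccna2 and Ccnb2 stood at 4.83 and 7.35 in WT replicate 1 and at 29.8 and 49.0 in CKO replicate 1.

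Mki67 encodes Ki-67, the coat protein of mitotic chromosomes that is widely used to count cycling cells (chromosome 7, 135689784 to 135716361, minus strand). Its levels were 8.09 and 46.2 in WT, 49.0 and 42.4 in CKO, and 9.14 and 16.1 in BTg. WT replicate 2 lay between the 2 CKO libraries, and WT replicate 1 lay below both BTg libraries. Top2a, the topoisomerase that untangles sister chromatids, stood at 8.58 and 27.7 in WT, 52.0 and 27.5 in CKO, and 7.30 and 11.1 in BTg. Hmgb2, a chromatin protein that is also made outside the cycle, stood at 92.0 and 135 in WT, 255 and 132 in CKO, and 85.7 and 70.3 in BTg. For Hmgb2, CKO replicate 2 lay slightly below WT replicate 2, and both BTg libraries lay below both WT libraries.

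Mitotic kinases and their passenger protein shared one order of libraries, from WT replicate 1 through BTg replicates 1 and 2, CKO replicate 2 and WT replicate 2 to CKO replicate 1. Aurkb, the Aurora kinase of the chromosomal passenger complex, stood at 2.27 and 13.6 in WT, 17.1 and 13 in CKO, and 2.83 and 5.15 in BTg. Birc5, survivin, which anchors that complex, stood at 3.37 and 17.0 in WT, 28.2 and 15.5 in CKO, and 4.26 and 5.46 in BTg. Plk1 and Aurka, kinases of centrosome and spindle, stood at 3.99 and 3.07 in WT replicate 1, the lowest library of each, and at 25.8 and 23.4 in CKO replicate 1, the highest. In each of these 4 genes WT replicate 2 was above CKO replicate 2.

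Kinetochore and checkpoint genes were lower in level. Bub1b, the BubR1 checkpoint protein, stood at 3.08 and 13.4 in WT, 23.6 and 11.4 in CKO, and 3.91 and 4.77 in BTg. Spc25, a subunit of the NDC80 complex that holds microtubules (chromosome 2, 69193895 to 69206194, minus strand), stood at 2.68 and 5.63 in WT, 10.4 and 4.28 in CKO, and 1.52 and 1.66 in BTg. It had the largest ratio of CKO mean to BTg mean, 4.62, from few reads, 74 and 79 in BTg. Cenpf, a large kinetochore protein, stood at 0.557 and 2.18 in WT, 2.96 and 2.57 in CKO, and 0.599 and 1.10 in BTg. Cenpf and Tyms were the 2 members whose CKO libraries both lay above both WT libraries. Bub1 and Cenpe lay between 1.14 and 11.3 over the 6 libraries.

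The spindle proteins and the anaphase-promoting complex act at the end of the cycle. Tpx2, which activates Aurora A on spindle microtubules, stood at 3.86 and 13.4 in WT, 26.4 and 12.8 in CKO, and 3.45 and 5.16 in BTg. Kif11, Kif20a and Nusap1, spindle motors and a microtubule bundling protein, lay between 2.52 and 3.80 in WT replicate 1 and both BTg libraries, and between 8.66 and 18.2 in WT replicate 2 and both CKO libraries. Stmn1, stathmin, which destabilizes microtubules and is made in other cells as well, stood at 22.9 and 55.3 in WT, 78.1 and 47.5 in CKO, and 29.0 and 30.2 in BTg. Cdc20, which activates the anaphase-promoting complex, stood at 8.52 and 52.2 in WT, 55.6 and 40.2 in CKO, and 14.5 and 16.1 in BTg. Ube2c, the ubiquitin-conjugating enzyme of that complex, stood at 4.80 and 26.8 in WT, 36 and 23 in CKO, and 6.93 and 9.44 in BTg. Of the mitotic genes, Cdc20 differed most between the control libraries, by a factor of 6.13.

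CKO was compared with WT to see whether transcripts of dividing cells differ where Blimp-1 is absent by label. All 36 genes had a higher mean in CKO, against 45.4% of all genes tested, under the main scaling, while 1 was lower under quantile normalization. The median difference on the log2(FPKM + 1) scale was 0.78, with a range of 0.26 to 1.42, against -0.03 for all genes. None of the 36 passed an adjusted p of 0.05 in limma, as for all genes (0 of 10798, 0.0%). At an unadjusted p under 0.05, 0 members were counted, against 4.2% of all genes, and limma voom on the recovered reads gave 4 against 5.93%, with 0 adjusted calls. The libraries did not overlap for 2 members, Cenpf and Tyms, against 11.5% of all genes higher in this way. The difference in Mki67 was 1.13 (SE 0.73, limma adjusted p = 1, n = 2 libraries a group). The smallest p of an S phase gene was that of Tyms (chromosome 5, 30058202 to 30073617, minus strand), with a difference of 0.78 (SE 0.36, limma adjusted p = 1). The smallest p of a mitotic gene was that of Cenpf (chromosome 1, 189640606 to 189688086, minus strand), with a difference of 1.04 (SE 0.50, limma adjusted p = 1).

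The answer depended on which control library was used. Without WT replicate 1, 24 members were higher and 12 lower in CKO, and the median was 0.13, with -0.01 over the S phase genes and 0.20 over the mitotic genes. Without WT replicate 2, 36 were higher, the median was 1.43, and 33 of 36 had an unadjusted limma p under 0.05, against 6.95% of all genes, with 0 adjusted calls. Without CKO replicate 1, 35 members were higher and the median was 0.53. Over all genes tested, the medians were -0.11 without WT replicate 1, 0.05 without WT replicate 2 and 0.11 without CKO replicate 1.

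BTg was compared with WT to ask whether raised Blimp-1 goes with fewer such transcripts. All 36 genes had a lower mean in BTg, against 45.5% of all genes tested. Their median difference was -0.50, from -0.76 to -0.20, against 0.02 for all genes. None passed the adjusted threshold in limma, which 2 of 10798 genes did (0.0185%), and 0 had an unadjusted p under 0.05, against 1.62%. With limma voom 0 did so, against 1.42%, and 0 passed the adjusted threshold. The libraries of 5 genes did not overlap (Pcna, Tyms, Rrm1, Hmgb2 and Spc25), against 10.4% of all genes lower in this way. Mki67 differed by -0.64 (SE 0.73, limma adjusted p = 1). Rrm1 (chromosome 7, 102441695 to 102469771, plus strand) had the smallest p of the S phase genes, with a difference of -0.70 (SE 0.46, limma adjusted p = 1), and Spc25 that of the mitotic genes, with -0.63 (SE 0.37, limma adjusted p = 1). This direction rested on WT replicate 2. Without it, 30 members were higher and 6 lower in BTg, and the median was 0.26, against 0.14 for all genes. Without WT replicate 1, 36 were lower, the median was -1.20 and 26 had an unadjusted p under 0.05, against 3.85% of all genes.

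In the comparison of the altered groups, both BTg libraries lay below both CKO libraries for all 36 genes, against 21.8% of all genes tested. The same held for markers of other cell types among those tested, 11 of 11 of neutrophils (median -4.39), 6 of 6 of plasma cells (-1.72), 5 of 5 of monocytes (-1.48), 3 of 3 of B cells (-1.21) and 10 of 11 of erythroid cells (-1.14). Of the 2 NK cell markers tested, 1 lay lower in this way and 1 higher (differences of -2.69 and 1.46). Of the CD4 T cell markers, 7 of 10 lay higher in both BTg libraries than in both CKO libraries (median 0.63), against 1918 of all 10798 genes. The median difference of the 36 genes, BTg minus CKO, was -1.33, from -2.04 to -0.68, against 0.06 for all genes. All 36 means were lower, against 43.9% of all genes, under each scaling tried. The ratio of the CKO mean to the BTg mean had a median of 3.53. An unadjusted p under 0.05 was reached by 22 members, against 6.01% of all genes lower at that threshold, while 0 members passed the adjusted one, which 2 genes did (0.0185%). With limma voom, 29 members had an unadjusted p under 0.05, against 12.8% of all genes in either direction, and 0 passed the adjusted threshold. The smallest adjusted p of a member was 0.464, for Tyms, with a difference of -1.23 (SE 0.36, limma, n = 2 libraries a group). Top2a (chromosome 11, 98992943 to 99024189, minus strand) had the smallest p of the mitotic genes, with a difference of -2.04 (SE 0.63, limma adjusted p = 0.47), and mean deposited FPKM of 31.2 ± 9.02 in BTg and 135 ± 58.8 in CKO (SD, n = 2). Mki67 differed by -1.77 (SE 0.73, limma adjusted p = 0.571). BTg shares its libraries with the comparison to WT, and CKO likewise, so the 3 comparisons are not independent.

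By role, the members at an unadjusted p under 0.05 were 5 of 6 cyclins and their kinase, 3 of 4 genes of deoxynucleotide supply, 2 of 3 genes of chromosome structure, 3 of 4 mitotic kinases and passenger proteins, 5 of 5 kinetochore and checkpoint genes and 4 of 5 spindle genes. None of the 7 helicase and clamp genes and neither anaphase-promoting complex gene was among them, although the median difference of the latter pair, -1.55, was larger in size than that of the spindle genes, -1.03. Of all genes tested, 6.01% were lower in BTg than in CKO at an unadjusted p under 0.05. The sets of members are small and no difference between them was tested. The count depended on single libraries. It was 0 without CKO replicate 1, against 4.82% of all genes in either direction, with a median of -1.02 and 36 still lower. Without BTg replicate 1 it was 1, against 4.37%, and without BTg replicate 2 it was 12, against 4.27%. Without WT replicate 1 it was 34, against 9.11%, and without WT replicate 2 it was 35, against 9.08%, since those libraries enter only through the shared spread. No member passed the adjusted threshold under any alternative run.

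**Figure D2:**
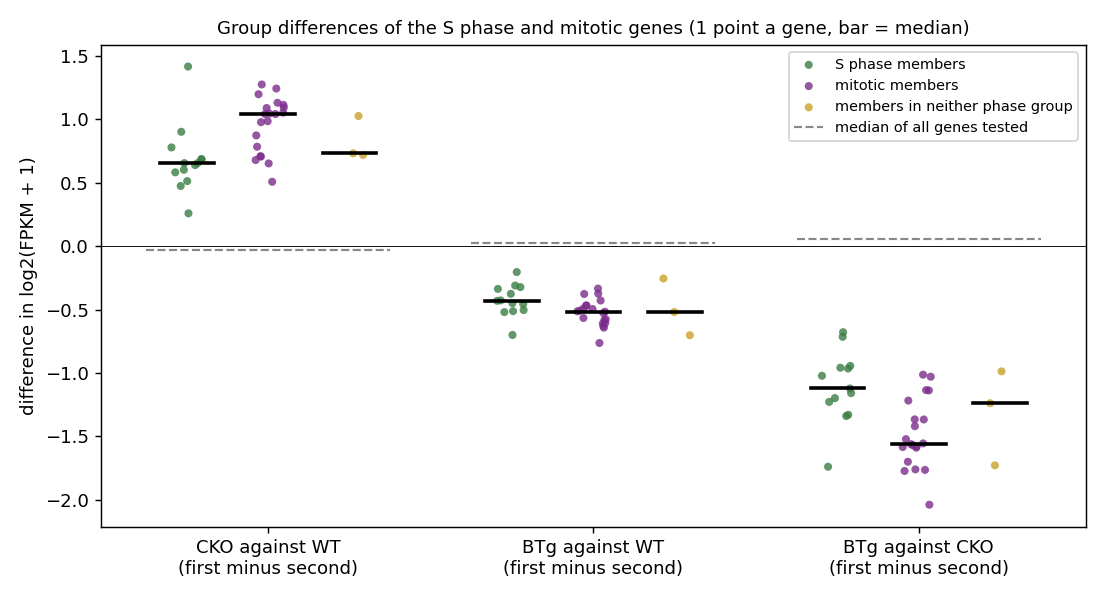
Differences between groups on the log2(FPKM + 1) scale for the S phase, mitotic and remaining genes in the 3 comparisons, 1 point a gene, with bars at the median of each set and a dashed line at the median of all genes tested. Points lie above 0 for CKO against WT (median 0.78), below 0 for BTg against WT (-0.50) and farthest below 0 for BTg against CKO (-1.33).

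S phase and mitotic genes were set side by side, as a description with no test, since genes are not replicates. Between BTg and CKO, the median difference was -1.12 over the 13 S phase genes and -1.56 over the 20 mitotic genes. An unadjusted p under 0.05 was reached by 4 of 13 and 16 of 20, and by 2 of the 3 in neither group. Of all genes tested, 6.01% were lower at that threshold. For CKO against WT the medians were 0.65 and 1.04, and for BTg against WT -0.43 and -0.52. The pseudocount of 1 FPKM weighs more on low genes, which many mitotic genes are. Without a pseudocount, the ratio of the CKO mean to the BTg mean had a median of 2.22 over the S phase genes, from 1.66 for Mcm4 to 3.53 for Rrm2, and of 3.82 over the mitotic genes, from 3.13 for Cdc20 to 4.62 for Spc25. The order of the phases was thus the same on both scales, and within the S phase set Rrm2 and Tyms lay in the mitotic range.

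Summed over each set, the mitotic genes moved through a wider range than the S phase genes. The S phase sum was 270.3 and 587 FPKM per exon length in WT, 699.7 and 496 in CKO, and 279 and 297 in BTg. The mitotic sum was 82.7 and 365 in WT, 522 and 323 in CKO, and 93.8 and 128 in BTg. The mitotic sum was 0.306 and 0.622 of the S phase sum in WT, 0.746 and 0.651 in CKO, and 0.337 and 0.432 in BTg. Pcna makes up a large part of the S phase sum, and without it these ratios were 0.551 and 0.816, 1.04 and 0.864, and 0.53 and 0.61. The ratio was higher in WT replicate 2 and both CKO libraries than in WT replicate 1 and both BTg libraries, with and without Pcna.

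Replicate numbers were compared within each group, also with no test. In WT, replicate 2 was above replicate 1 for 36 of 36 genes, against 69.0% of all genes, with a median log2(FPKM + 1) difference of 1.43, against 0.20. At least a 2-fold excess on that scale was seen for 29 of 36, against 5.92% of all genes. In CKO the order was opposite, with replicate 2 lower for 35 of 36, against 33.8% of all genes, and a median of -0.52, against 0.25. Ccne1 was the exception, and 2 members were at least 2-fold lower, against 5.09%. In BTg, replicate 2 was higher for 33 of 36, against 63.3%, with a median of 0.27. No member was 2-fold higher there, against 2.78% of all genes. The median gap between the WT libraries was larger in size than the median difference of each of the 3 group comparisons. WT replicate 2 also held more erythroid transcripts, a summed marker level of 1404 against 135 in WT replicate 1. Its neutrophil sum was 308 against 122. CKO replicate 1 held more neutrophil transcripts, 17646 against 390.2 in CKO replicate 2. The erythroid sum in CKO went the other way, at 556 in replicate 1 and 879.9 in replicate 2. By phase, the medians were 1.38 for S phase and 1.56 for mitotic genes in WT, -0.44 and -0.60 in CKO, and 0.23 and 0.29 in BTg.

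**Figure D3:**
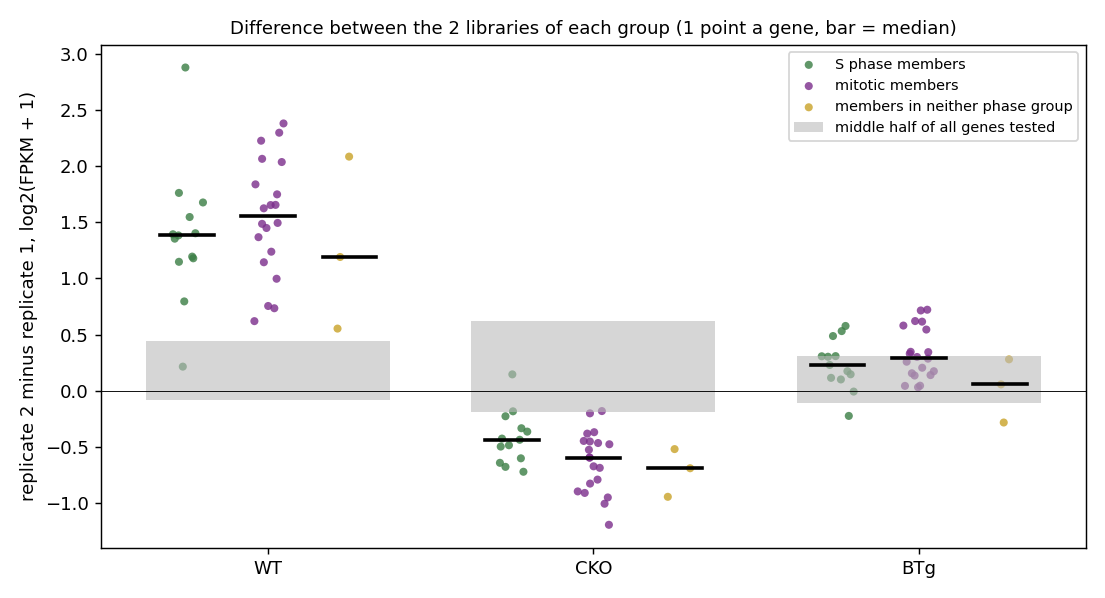
Difference between replicate 2 and replicate 1 of each group on the log2(FPKM + 1) scale, 1 point a gene, with bars at the median of each set and grey bands from the lower to the upper quartile of all genes tested. In WT the 36 genes lie above 0 with a median of 1.43, in CKO 35 lie below 0, and in BTg 33 lie above 0 within 0.72.

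Within number 1, CKO was above WT for 36 of 36 genes, with a median of 1.71, and mitotic genes (2.18) exceeded S phase genes (1.54). Within number 2, CKO was below WT for 34 of 36, with a median of -0.18, and no member was 2-fold apart. On the level scale, CKO replicate 2 lay between 0.735 (Aurka) and 1.18 (Cenpf) times WT replicate 2. BTg was above WT for 25 of 36 within number 1, with a median of 0.10, and below WT for 36 of 36 within number 2, with a median of -1.08. BTg against CKO kept its direction within both numbers, with medians of -1.73 and -0.92 and 36 of 36 lower in each. Both comparisons with WT thus had medians of opposite sign in the 2 numbers. Single libraries also differed over all genes, 69.0% being higher in WT replicate 2 than in WT replicate 1. The counts by number describe the members only, without the share over all genes beside them. They therefore do not set the members apart from a shift of a whole library, least of all where 25 of 36 went 1 way.

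Transcripts of other cell types also differed between these libraries. Erythroid markers (11 of 12 listed were measured, globins and Klf1 among them) summed to 135 and 1404 FPKM per exon length in WT, 556 and 879.9 in CKO, and 159 and 244 in BTg. Their 3 highest libraries were the 3 in which the cell cycle genes were high, and Tfrc, the transferrin receptor, is also used by dividing cells. Hba-a2 was at 0 in WT replicate 1, CKO replicate 1 and BTg replicate 2. Neutrophil and precursor markers (11 of 11) summed to 122 and 308 in WT, 17646 and 390.2 in CKO, and 74.7 and 69.1 in BTg, with Retnlg at 0 in BTg replicate 1. CKO replicate 1 held most of these transcripts, S100a8 and S100a9 at the head. Plasma cell markers (8 of 8, Jchain the most abundant) summed to 414 and 400.2 in WT, 2381 and 622 in CKO, and 349.5 and 224 in BTg. Monocyte and macrophage markers (9 of 9) summed to 26.6 and 79.8 in WT, 777 and 117 in CKO, and 22.2 and 22.7 in BTg, with C1qa at 0 in BTg replicate 2. B cell markers (9 of 9) summed to between 15.7 and 67.0, the highest in CKO replicate 1. Germinal centre B cell markers (6 of 6) summed to between 12.1 and 20.5, most of it from Fas, with Rgs13 at 0 in 5 libraries. NK cell markers (7 of 7) summed to between 36.8 and 173, with the highest sum in CKO replicate 1, where Nkg7 made up 162 of it. Gzma was also highest in that library, while Ncr1, Klra4, Klra8 (at 0) and Prf1 were each lowest there. CD8 T cell markers (2 of 2) summed to between 1.74 and 8.12. CKO replicate 1 thus had the highest sum of the neutrophil, plasma cell, monocyte and B cell lists. It was also the highest library for 33 of the 36 cell cycle genes. Precursors of red cells and neutrophils divide as well as T cells, and the part of these cell types in the cell cycle results was not tested.

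**Figure D4:**
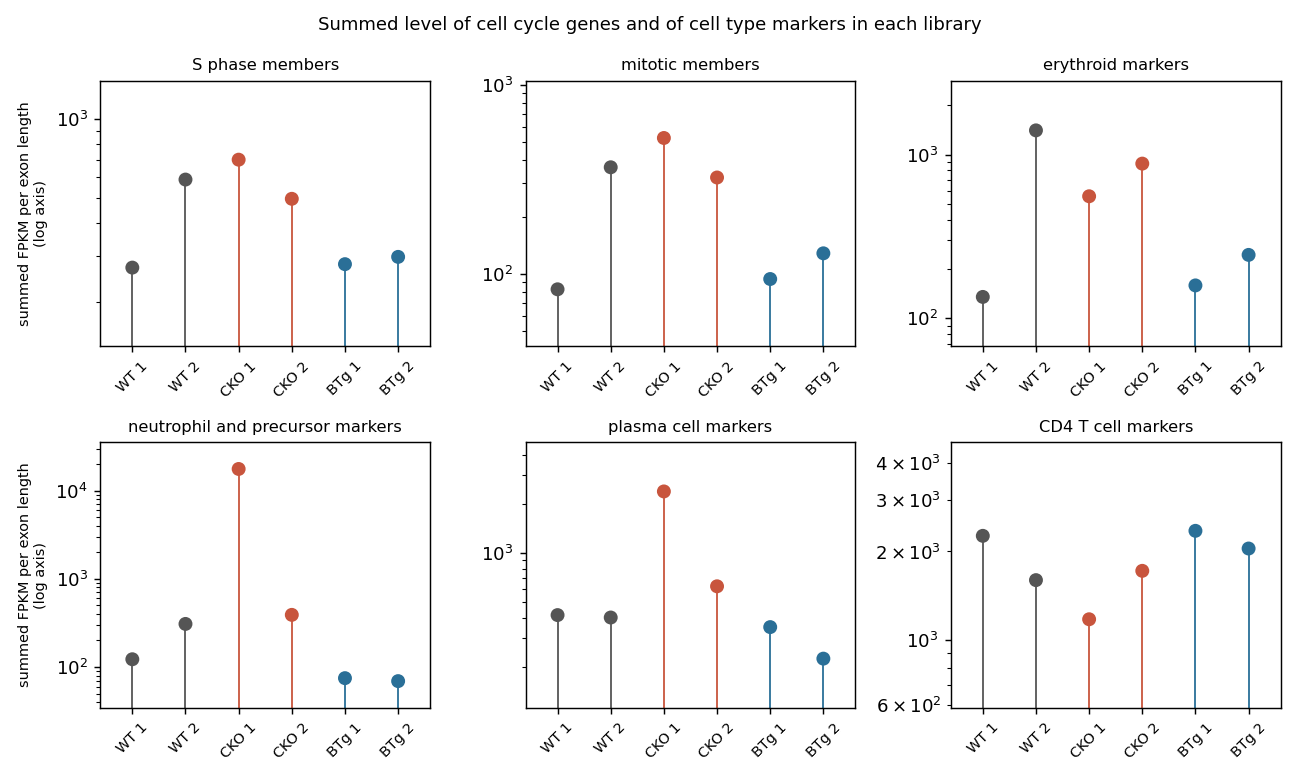
Summed level (FPKM per exon length, log axes with separate ranges) of the S phase and mitotic genes and of 4 cell type marker lists in each of the 6 libraries. WT replicate 2 and both CKO libraries are the highest for S phase, mitotic and erythroid genes, and CKO replicate 1 is the highest for neutrophil markers at 17646 and plasma cell markers at 2381.

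Further genes of the same processes, listed by function, were read from the same fit. Of 36 other replication genes 33 were tested, and 33 of 33 were lower in BTg than in CKO, against 43.9% of all genes. Their median was -0.87. At an unadjusted limma p under 0.05, 9 were lower, against 6.01% of all genes, and none passed an adjusted p under 0.05. Pola1, the catalytic subunit of DNA polymerase alpha, stood at 3.15 and 4.97 in WT, 8.66 and 4.89 in CKO, and 2.98 and 2.46 in BTg, a BTg minus CKO difference of -1.0 (SE 0.32, limma adjusted p = 0.471). Rfc3, of the clamp loader, stood at 4.56 and 8.48 in WT, 11.8 and 7.75 in CKO, and 4.23 and 4.48 in BTg. In CKO against WT, 32 of the 33 were higher, against 45.4% of all genes, with a median of 0.46. In BTg against WT 31 were lower, against 45.5% of all genes, with a median of -0.37.

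Of 56 other mitotic genes 51 were tested, and 50 were lower in BTg than in CKO, against 43.9% of all genes. Their median was -1.18. At an unadjusted p under 0.05, 31 were lower, against 6.01% of all genes, and none passed an adjusted p under 0.05. Ckap2, a microtubule-associated protein, had the smallest p, with levels of 2.08 and 5.75 in WT, 10.3 and 5.24 in CKO, and 1.51 and 2.18 in BTg and a difference of -1.75 (SE 0.50, limma adjusted p = 0.459). Cks2, a small partner of CDK1, stood at 36.4 and 80.0 in WT, 174 and 75.9 in CKO, and 31.9 and 33.5 in BTg. Foxm1, the transcription factor of mitotic genes, stood at 0.919 and 4.51 in WT, 5.37 and 5.27 in CKO, and 1.15 and 2.64 in BTg. Both Foxm1 values in CKO were above those in WT, without passing the test (limma difference 0.96, SE 0.52, adjusted p = 1). Against WT, 50 of the 51 were higher in CKO, against 45.4% of all genes, with a median of 0.76. An unadjusted p under 0.05 was reached by 2 of the 51, against 4.2% of all genes in either direction. These were Sapcd2 (1.35, SE 0.43) and Racgap1 (0.96, SE 0.39), both with a limma adjusted p of 1. In BTg against WT 48 were lower, against 45.5% of all genes, with a median of -0.41.

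The regulators of the G1 phase were less uniform. Of 16 such genes 12 were tested, and 9 were lower and 3 higher in BTg than in CKO, with a median of -0.51. Of all genes, 43.9% were lower. At an unadjusted p under 0.05, 2 were lower (Cdk6 and Tfdp1), against 6.01% of all genes, and none passed an adjusted one. Cdk6, a kinase that opens G1, stood at 2.17 and 4.06 in WT, 8.13 and 4.97 in CKO, and 2.05 and 3.14 in BTg. E2f1, which drives S phase genes, stood at 2.1 and 9.87 in WT, 9.85 and 9.19 in CKO, and 3.06 and 4.22 in BTg, so that WT replicate 2 and both CKO libraries were the highest. Ccnd2, the D-type cyclin of lymphocytes, stood at 32.9 and 35.7 in WT, 19.2 and 36.7 in CKO, and 39.6 and 46.6 in BTg, so that both BTg libraries lay above both CKO libraries, unlike the mitotic cyclins. Ccnd3 stood at 35.9 and 53.4 in WT, 30.2 and 47.1 in CKO, and 43.5 and 54.6 in BTg. Myc, the growth regulator induced by T cell activation, stood at 22.0 and 36.7 in WT, 25.1 and 33.3 in CKO, and 20.9 and 23.8 in BTg.

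Inhibitors of the cycle and quiescence genes had no common direction. Of 24 listed 19 were tested, and 12 were higher and 7 lower in BTg than in CKO, with a median of 0.31. Of all genes, 43.9% were lower. At an unadjusted limma p under 0.05, 1 was higher (Foxo1), against 300 of all 10798 genes. At that p, 2 were lower (Cdkn1a and Cdkn2c), against 6.01% of all genes, and none passed the adjusted threshold. Foxo1, a transcription factor of resting T cells, stood at 26.1 and 29.5 in WT, 11.6 and 27.6 in CKO, and 35.4 and 40.6 in BTg. Cdkn2c, the CDK4 and CDK6 inhibitor p18, stood at 4.58 and 12.0 in WT, 13.2 and 12.2 in CKO, and 5.66 and 5.20 in BTg, so that WT replicate 2 and both CKO libraries were the highest. Cdkn1b, the inhibitor p27, stood at 59.7 and 63.4 in WT, 36.4 and 68.5 in CKO, and 60.2 and 64.4 in BTg. Klf2, a factor that keeps T cells resting, stood at 181 and 156 in WT, 73.6 and 160.0 in CKO, and 247 and 164 in BTg. Cdkn1b, Klf2, Ccnd2 and Ccnd3 were each lowest in CKO replicate 1, the library with the lowest summed CD4 T cell markers. Other genes of the same lists were highest in that library, Cdkn1a (5.34), Cdkn2c (13.2), Cdk4 (90.1), Cdk6 (8.13) and Tfdp1 (55.5) among them. Of the 19, 13 were lower in CKO than in WT, against 5896 of all 10798 genes. Their median was -0.13, against -0.03 for all genes. In BTg 15 were higher than in WT, against 5884 of all genes, with a median of 0.05, against 0.02.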

How the data were processed

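Per the labels' protocols, TRIzol RNA was made into NEBNext Ultra libraries. Per the submitters' processing notes, reads went through Trimmomatic 0.38, HISAT2 2.1.0 (GRCm38) and featureCounts 1.6.0; no strand setting or annotation is named there. The authors deposited FPKM values. These divide by a genomic span that includes introns (the median over the transcripts): with that length all values were whole reads within 0.01, and the FPKM per exon length were computed from those reads. The span is below exon length for 13 of the 36 genes. Replicate numbers come from the bracketed part of each title; both BTg titles otherwise end in 1. Values were taken as log2(FPKM + 1), and all 6 libraries entered one limma fit with a trend (R 4.3.3, limma 3.58.1), with 3 residual degrees of freedom, no block and Benjamini-Hochberg adjustment over 10798 genes. The fit was tested on simulated data. An exact permutation test cannot pass 0.05 with 2 libraries a group and was not run. Statistics are given for Mki67, for the S phase and the mitotic member with the smallest p in each comparison, for Prdm1, and for up to 3 genes of each further list or ones named with it. The members and lists were chosen with earlier results of these data known. Alternatives were other pseudocounts, filters, scalings, variance models and lengths, a replicate block and leaving out libraries. Leaving out WT replicate 2 with CKO replicate 1 was added after seeing the data. Figures used matplotlib 3.10.9.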

Additional observations from a re-analysis of the deposited data

How the results depend on the processing

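Numbers of genes past the adjusted limma threshold moved widely with the settings. Without a filter they were 65 for CKO against WT, 46 for BTg against WT and 81 for BTg against CKO, in that order. For BTg against WT they were 1 with a filter of 5 FPKM, 0 with quantile normalization, 4 with voom, and 0 to 0 when each library was left out. For BTg against CKO they were 5 with that filter, 0 with quantile normalization, 7 with voom, 9 with exon-length FPKM, and 0 to 255 over the libraries left out, the 255 without CKO replicate 2. For CKO against WT they were 0 to 81, the 81 also without CKO replicate 2. Without both WT replicate 2 and CKO replicate 1 they were 0 for BTg against WT and 0 for BTg against CKO. With the replicate block they were 0 for these comparisons as well. Deviations of same-numbered libraries correlated over all genes at 0.173 (WT and CKO), 0.469 (WT and BTg) and 0.456 (CKO and BTg). Over the members the correlations were 0.345, 0.724 and 0.494 in that order. Most members were nevertheless higher in replicate 2 of WT and lower in replicate 2 of CKO. With 2 numbers a group the pairing is not established. The block left the members' medians as they were, and 19 of 36 then had an unadjusted p under 0.05 in BTg against CKO, against 15.7% of all genes, where the fit without it gave 22 against 8.79%.

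The members' medians kept their sign under 17 alternatives, apart from the following. For BTg against WT the median of the 36 was -1.20 to 0.26 over the libraries left out and 0.26 without WT replicate 2 and CKO replicate 1. The S phase median was -1.20 to 0.28 and 0.28 in the same order, and the mitotic median was 0.22 without WT replicate 2, alone or with CKO replicate 1. Without WT replicate 1 the S phase median of CKO against WT was -0.01. For Mki67, CKO against WT was -0.020 without WT replicate 1, the lowest of a range up to 2.28, and BTg against WT was 0.51 without WT replicate 2, alone or with CKO replicate 1, and -1.79 without WT replicate 1. BTg against CKO stayed negative throughout, with a median of -1.75 at a pseudocount of 0.1 and -1.80 with voom. Its mitotic median was -1.90 with voom, -1.78 to -1.17 over the libraries left out and -1.17 without WT replicate 2 and CKO replicate 1. Beyond fewer samples or other genes tested, the cause was not tested. A filter of 5 FPKM left 29 of the 36 genes.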

Other observations

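Genes outside the cell cycle lists were ranked by how closely their log2(FPKM + 1) followed the mean profile of the 36 genes over the 6 libraries. Among 6395 candidates with a mean of at least 2 FPKM, 402 had a Pearson correlation of at least 0.9. The 6 libraries share their differences in cell type markers, so the ranking is a description with no test. The closest was Eme1, a subunit of a DNA endonuclease of recombination, at 1.22 and 3.89 FPKM in WT, 5.24 and 3.42 in CKO, and 1.31 and 1.72 in BTg. Stom, a membrane protein abundant in red cells, stood at 1.70 and 6.91 in WT, 9.72 and 5.66 in CKO, and 1.81 and 2.41 in BTg. Rad54l, a motor of homologous recombination, stood at 0.823 and 3.15 in WT, 4.29 and 2.63 in CKO, and 0.835 and 1.18 in BTg. The next were Cip2a, an inhibitor of protein phosphatase 2A, Actl6a, Tmem39b, Psrc1, a spindle protein, Hars, a transfer RNA synthetase, Xpnpep1 and Hirip3, a histone chaperone. Each of the 10 had a correlation of at least 0.99. Each member has its own part in the profile, and their correlations with it ran from 0.792 (Pcna) to 0.998 (Birc5), with a median of 0.988.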
